A study of Mus musculus with 3 samples.

Results

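The ATF and CREB family genes are a group of 10 genes for basic leucine zipper (bZIP) transcription factors, Atf1, Atf2, Atf3, Atf4, Atf5, Atf6, Atf7, Creb1, Crem and Jdp2. They were chosen by name, and all 10 were found by symbol among 21887 protein-coding genes. For each gene, the peaks that overlapped its RefSeq span in mm10 or the 50 kb on either side, here called its window, were taken from an ATF4 and a CEBPG peak list. The windows held 4 of 2642 ATF4 peaks and 22 of 25419 CEBPG peaks, and no peak fell in the windows of more than 1 of these genes.

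The peaks came from chromatin immunoprecipitation followed by sequencing (ChIP-seq) of wild-type C57BL/6 mouse embryonic fibroblasts, isolated at E13.5 and used at low passage. The group precipitated with an ATF4 antibody (Santa Cruz, C-20) and the group precipitated with a laboratory-made antiserum to the C terminus of CEBPG had 1 library each. The remaining library, with a GFP antibody, was not analysed here. All the cells had been plated for 24 hours and had then spent 3 hours in medium deprived of amino acids (AAD), and a fed control was not analysed here, so binding cannot be related to the deprivation. With 1 library per antibody no spread between cultures is known, and every value below is a description without a test.

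Proteins of this family bind DNA as dimers joined by their leucine zippers, and the choice of partner sets which sequence they read. CREB1, CREM and ATF1 bind the cAMP response element and are switched on by phosphorylation, while ATF4 is made in larger amounts when amino acids run short and eIF2 alpha is phosphorylated. ATF4 does not bind its best known sites alone but pairs with C/EBP proteins such as CEBPG on a composite element that joins a C/EBP and an ATF sequence. ATF4 is known to raise the expression of other family members, ATF3 and ATF5 among them.

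Each peak carries a score given by the authors, which ranks peaks within its own list and cannot be compared between the lists. Scores began at 40.02 for ATF4 and at 40 for CEBPG, with list medians of 45.9 for ATF4 and 47.2 for CEBPG. A score of 100 or more was reached by 5.11% of ATF4 peaks and 11.7% of CEBPG peaks, and such peaks are called high-scoring below. The depth of the libraries is not known, so a missing peak means only that no peak was listed.

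An ATF4 peak lay in the windows of 4 of the 10 genes, Atf1, Atf5, Atf7 and Jdp2, against 12.0% of all protein-coding genes (2629 of 21887). A CEBPG peak lay in the windows of all 10, against 62.5% of all genes. An ATF4 peak that overlapped a CEBPG peak by at least 1 bp was found for Atf1 and Atf5, where the share over all genes was 2.95%. High-scoring peaks were in the window of 1 gene for ATF4 (Atf5, against 0.991% of all genes) and of 4 genes for CEBPG (Atf1, Atf3, Atf5 and Atf6, against 17.3%).

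**Figure D1:**
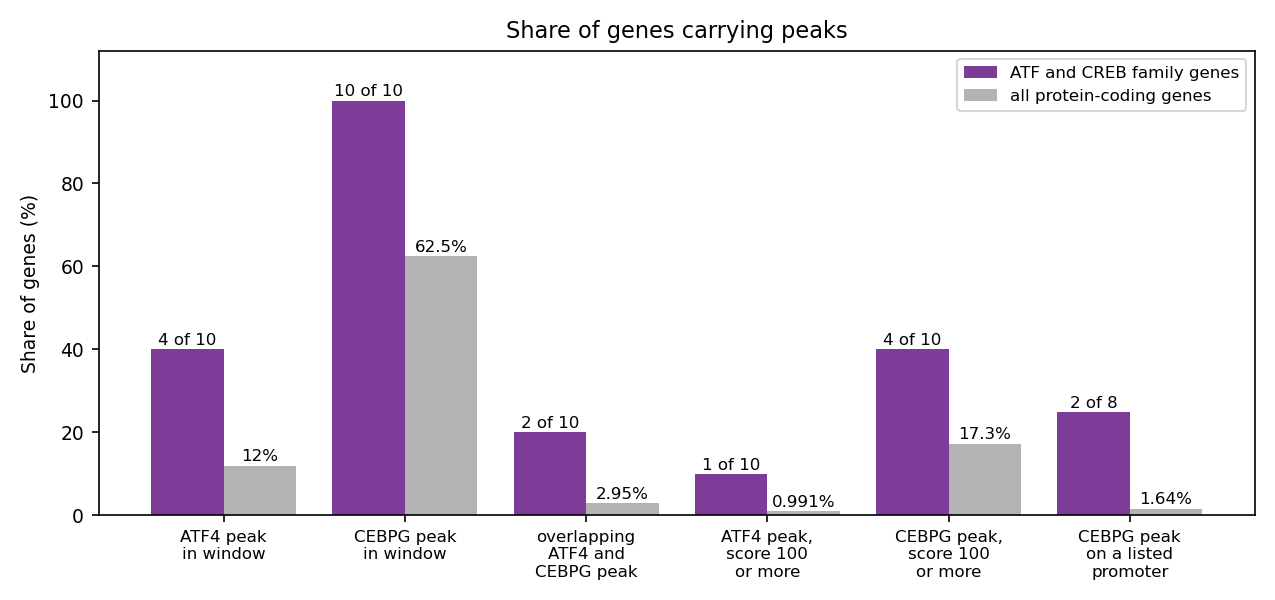
Share of genes (%) that carry each kind of peak, for the ATF and CREB family genes (purple, with the number of genes) and for all protein-coding genes (grey). A window is the gene span and 50 kb on either side, and a listed promoter runs from 250 bp before to 50 bp after a RefSeq start; CEBPG peaks were in all 10 windows and ATF4 peaks in 4.

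The windows were longer than usual, with a median of 156.0 kb against 117.0 kb over all genes, which gives a peak more room to fall in. Among the 17739 genes with windows between the shortest and longest of the family (102.0 to 264.0 kb), 10.7% had an ATF4 peak and 62.7% a CEBPG peak. That range takes in most genes and was not matched to the family's median, so it does not account for window length. Per 100 kb of window, the family had 0.254 ATF4 peaks (95% exact Poisson interval 0.0691 to 0.649) and all genes 0.0956. For CEBPG the densities were 1.39 peaks per 100 kb (0.874 to 2.11) in the family and 0.94 over all genes. The intervals cover counting error only, and over all genes a peak was counted once for each window it fell in.

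Of the family genes tied to the amino acid response, Atf5 carried peaks of both factors, Atf3 a CEBPG peak alone at its start, and Atf4 no peak of either list nearer than 35.2 kb. Atf5, which encodes a stress-induced activator translated by a mechanism like that of ATF4, had the strongest site of the family in both lists. The ATF4 peak had a score of 145.38 and covered chr7:44819015-44819336, and 2.91% of the ATF4 list scored as high. The CEBPG peak had a score of 2765.18 and covered chr7:44818774-44819452, a value reached by 52 of the 25419 CEBPG peaks. The ATF4 peak lay wholly within the CEBPG peak, with 62 bp between their centres. A top CEBPG score at least this high was found in the windows of 0.466% of all protein-coding genes.

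The Atf5 pair was upstream of the gene and inside other genes. Atf5 is transcribed from the minus strand, and the ATF4 peak was centred 2517 bp before its first listed start. At this position the spans of Nup62, a nuclear pore gene, and Il4i1b run across the site, and their nearest listed starts were 3087 bp and 2805 bp from the ATF4 peak centre. The nearest listed start of any gene was that of Atf5. Peak lists do not tell which of these genes a site acts on. The window, at 104.0 kb, held 8 other protein-coding genes and 2 weaker CEBPG peaks inside Akt1s1, with scores of 79.21 and 43.68.

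By their highest scores in both libraries, the genes most like Atf5 were Gpt2, Dnaja2 and Fyn, out of 2063 genes ranked. The ranked genes had a peak of each kind in the window and lay at least 100 kb from the span of any family gene. Neighbours of Atf5 that share its peaks, such as Nup62 and Il4i1b, were thus left out beforehand. The likeness is a Euclidean distance of log10 scores over 2 libraries, 0.0282 for Gpt2 and Dnaja2 and 0.0497 for Fyn. Gpt2, which encodes a mitochondrial alanine transaminase, and Dnaja2 had the same peaks in their windows (152.73 for ATF4 and 2650.66 for CEBPG), 0.342 kb from the span of Gpt2 and 45.4 kb from that of Dnaja2. Fyn, a tyrosine kinase gene, had 146.0 for ATF4 and 3100.0 for CEBPG, with its ATF4 peak 45.3 kb from the span. The CEBPG score 3100.0 is shared by 38 peaks, with 4 above it, and looks like a ceiling, so the distance of Fyn rests on a value that may be capped.

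Atf3, a stress-induced factor known mainly as a repressor, had a CEBPG peak on its start and no ATF4 peak. The CEBPG peak, with a score of 725.28, covered chr1:191183131-191183575 and was centred 20 bp before the listed start on the minus strand. A score as high was held by 1.74% of the CEBPG list. The nearest ATF4 peak of any score was 831.0 kb from the gene. The other CEBPG peaks of the window lay 46.4 kb and 42.8 kb from the gene, with scores of 119.17 and 64.6. The stronger of these was nearest to Batf3, a further bZIP gene, at 14.9 kb.

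Jdp2, which encodes a small AP-1 repressor, resembled Atf3 in where its CEBPG peak lay. That peak had a score of 91.38, reached by 12.7% of the list, and covered chr12:85599310-85599483, with its centre 20 bp before the second of 3 listed starts. Jdp2 also had an ATF4 peak inside the gene, at chr12:85603784-85604024, with a score of 43.98 that 61.0% of the ATF4 list reached. The edges of these peaks were 4.3 kb apart, so they are separate sites. Of the 8 family genes with a listed promoter (250 bp before to 50 bp after a start), Atf3 and Jdp2 were the 2 with a CEBPG peak on it, against 1.64% of 17492 genes. An ATF4 peak lay on the promoter of 0 of the 8, against 0.189% of all genes with one, so that a count of 0 says nothing about the family. Atf6 and Crem had no listed promoter and could not be counted.

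The promoters that these CEBPG peaks overlapped are shown because both held an exact C/EBP-ATF composite, TGATGCAA. They are RefSeq sequences of GRCm38.p6 (the build mm10), printed from 250 bases before the start up to the base before it, on the gene's own strand, and capitals mark this motif and TGACG, the shorter form of the cAMP response element. The Atf3 window runs over chr1:191183284-191183583 (minus strand) and the Jdp2 window over chr12:85599166-85599465 (plus strand), including the 50 bases after the start that are not printed.
Atf3: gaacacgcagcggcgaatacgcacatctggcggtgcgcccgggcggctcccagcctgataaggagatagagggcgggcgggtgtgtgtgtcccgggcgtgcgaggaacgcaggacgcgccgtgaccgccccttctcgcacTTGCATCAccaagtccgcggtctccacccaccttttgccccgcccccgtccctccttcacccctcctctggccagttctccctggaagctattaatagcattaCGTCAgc
Jdp2: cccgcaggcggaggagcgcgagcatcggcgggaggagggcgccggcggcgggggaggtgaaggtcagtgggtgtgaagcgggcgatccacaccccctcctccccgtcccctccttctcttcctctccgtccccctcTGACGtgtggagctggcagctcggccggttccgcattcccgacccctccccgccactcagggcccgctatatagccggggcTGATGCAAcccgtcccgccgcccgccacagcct
In Atf3 the composite reads TTGCATCA, its reverse complement, at bases -110 to -103 from the start, and its centre was 86 bp from the centre of the CEBPG peak. In Jdp2 it reads TGATGCAA at bases -33 to -26, 10 bp from the peak centre. The CEBPG peak covered only 156 bp of the Jdp2 promoter, and the TGACG marked there lies outside the peak.

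A composite is uncommon in promoters at large. TGATGCAA, on either strand, was held by 27.1% of the 48 listed promoters that an ATF4 peak overlapped and by 12.0% of the 410 that a CEBPG peak overlapped, against 0.895% of all 32851. The 46 CEBPG peaks on a promoter with the motif had a median score of 261.0 (41.53 to 3100.0), and 12 of them overlapped an ATF4 peak. The peaks at Atf3 and Jdp2 were among the other 34, with the Atf3 score above that median and the Jdp2 score below it.

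In the promoters of the other family members, no TGATGCAA was found. Listed promoters were matched for 8 of the 10 genes, 11 promoters in all, and 4 of these held any of the 7 motifs searched. The Atf4 promoter held TGACG at bases -12 to -8 and 41 to 45, and the Atf1 promoter at -90 to -86, a motif in 20.8% of all promoters. None of the 11 held the full cAMP response element TGACGTCA (1.79% of promoters), the AP-1 motif TGANTCA (7.81%), the C/EBP palindrome TTGCGCAA (0.183%) or the endoplasmic reticulum stress element (0.119%). The looser composite TGATGNAA (3.97%) was met only where TGATGCAA was, in Atf3 and Jdp2, since it contains it. TGACG is likewise part of TGACGTCA.

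**Figure D2:**
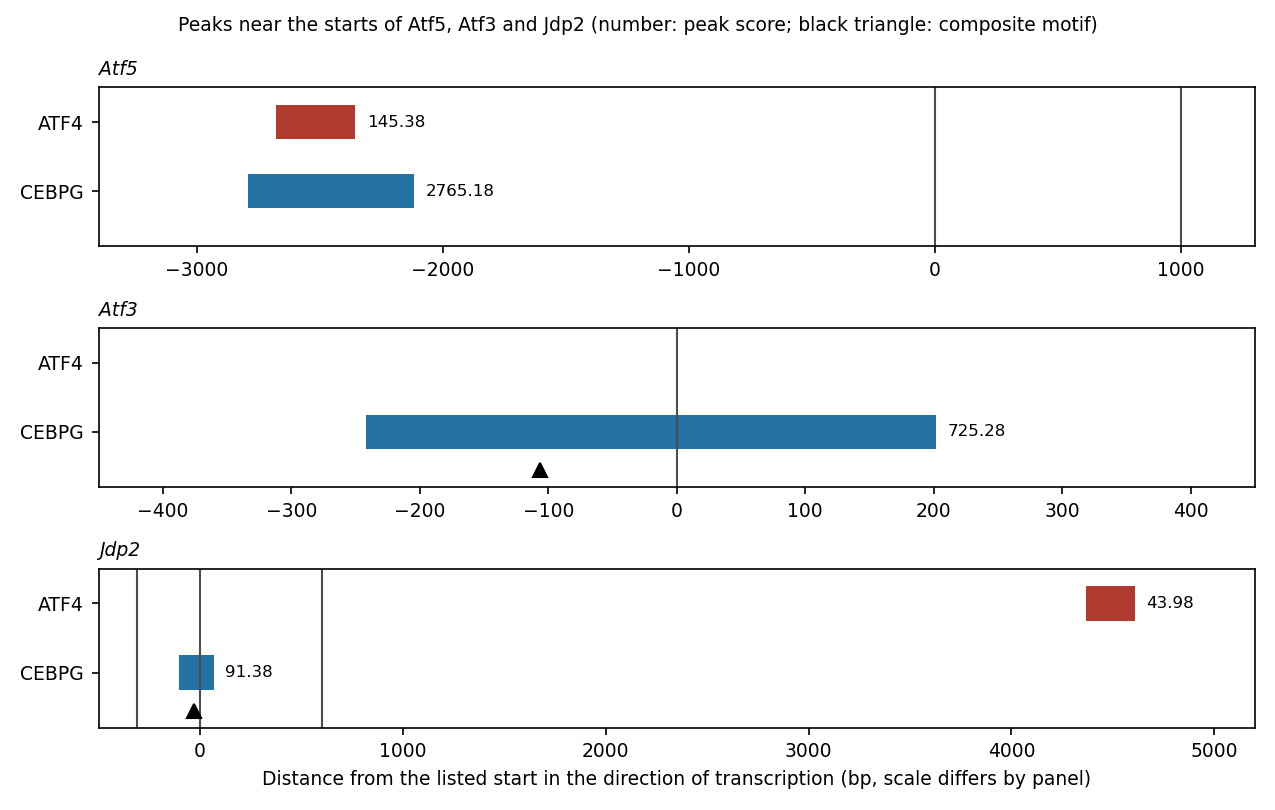
Position of ATF4 peaks (red) and CEBPG peaks (blue) relative to a listed start (0) of Atf5, Atf3 and Jdp2, in bp along the direction of transcription, with scores beside the bars, other listed starts as lines and the TGATGCAA composite as a black triangle. The Atf5 pair overlaps upstream of the start, the Atf3 and Jdp2 CEBPG peaks cover a start, and the Jdp2 ATF4 peak lies inside the gene.

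Atf4 itself had no ATF4 peak within 485.0 kb, and the weak site at that distance scored 41.25. Its 102.0 kb window held CEBPG peaks of 58.69 and 80.35, 232 bp apart from centre to centre. Both were about 35 kb from Atf4 (35.5 and 35.2 kb) and nearest to Mgat3, a glycosyltransferase gene, at 4187 bp and 4419 bp. No CEBPG peak was thus listed at the Atf4 start, and 4 other protein-coding genes shared the window.

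Atf6 encodes a membrane-bound sensor of the endoplasmic reticulum whose cytosolic part is released by proteolysis and enters the nucleus. A CEBPG peak of 149.58 at chr1:170868517-170868815 spanned the higher-coordinate end of the gene, with its centre 81 bp beyond it. A score this high was held by 8.27% of the list. No promoter was listed for Atf6, so this peak could not be among those counted on promoters. A second CEBPG peak, of 40.48, lay 4849 bp from the other end. The nearest ATF4 peak was 602.0 kb away, with a score of 135.89.

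Of the genes for CREB proteins that bind the cAMP response element, Atf1 had the only peak with a score above 50. An ATF4 peak of 40.67 at chr15:100204660-100204855, among the lowest in its list (93.3% scored as high), lay inside a CEBPG peak of 339.21 at chr15:100204553-100204944. The centres were 9 bp apart. This pair lay 23.1 kb upstream of the Atf1 start but inside Dip2b, the neighbouring gene. A CEBPG peak of 41.76 was within Atf1 and another, of 40.68, lay next to the pair.

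Creb1, the widely expressed activator, and Crem, which also gives rise to a short repressor isoform, had hardly any sites. Creb1 had a single CEBPG peak of 43.68 at 11.8 kb from its span, and Crem a single one of 43.43 at 10.9 kb. Peaks of these scores or higher made up 68.4% and 70.3% of the CEBPG list. The nearest ATF4 peaks were 177.0 kb from Creb1 and 148.0 kb from Crem.

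Atf2 and Atf7 encode related activators that respond to stress kinases and dimerise with JUN. Atf2 had the most CEBPG peaks of the family, 5 in a window of 176.0 kb, but none scored above 50.11. Of these, 3 were inside the gene, with scores of 44.35, 44.43 and 44.74. The nearest ATF4 peak was 331.0 kb away. Atf7 had 1 ATF4 peak, of 42.4, inside Pcbp2 and 43.4 kb from Atf7, and 1 CEBPG peak of 43.21 at 27.0 kb on the other side.

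**Figure D3:**
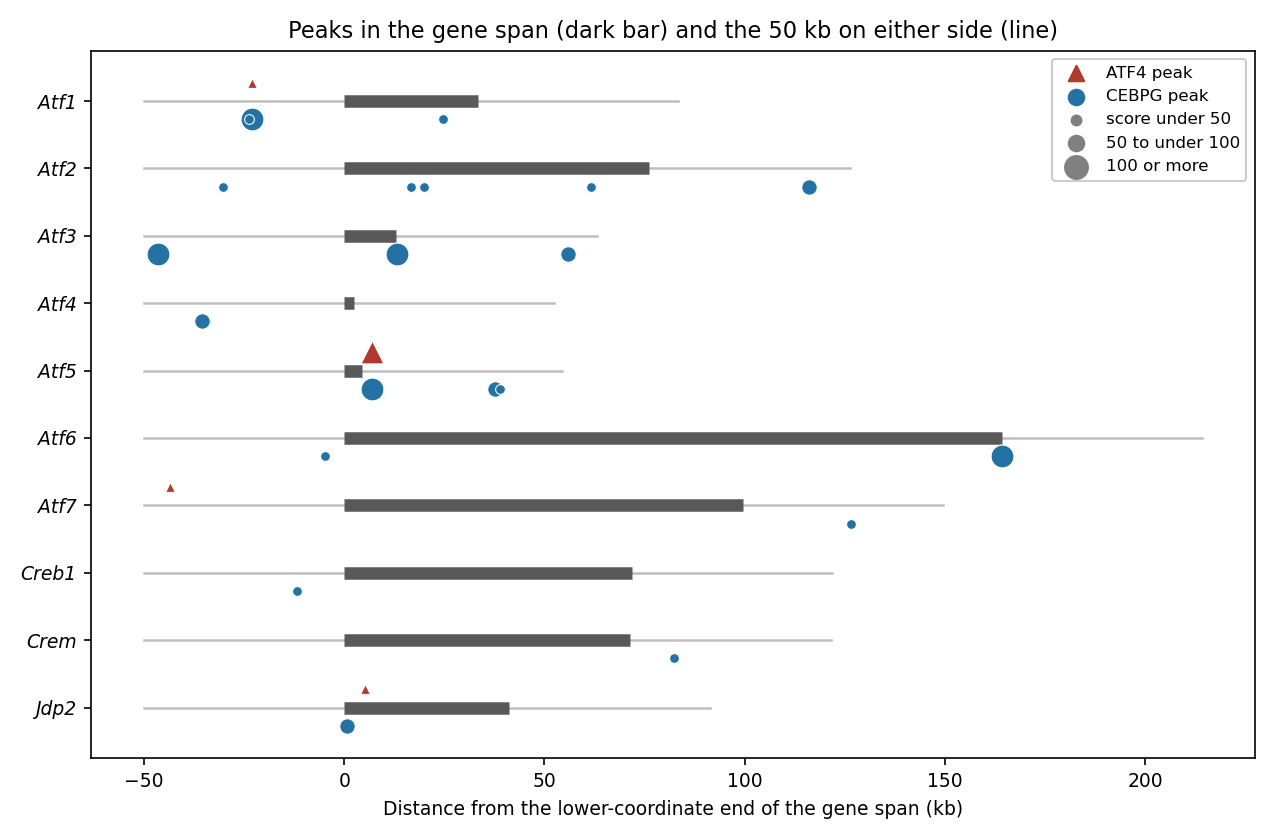
ATF4 peaks (red triangles, above each line) and CEBPG peaks (blue circles, below) in the window of each gene, by distance in kb from the lower-coordinate end of its span (dark bar); marker size gives the score class. ATF4 peaks appear in 4 rows, and the ATF4 peak of Jdp2 is the one drawn over a gene of the family.

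Set in order of the highest CEBPG score in the window, the genes ran from Atf5 (2765.18) through Atf3 (725.28), Atf1 (339.21), Atf6 (149.58), Jdp2 (91.38), Atf4 (80.35), Atf2 (50.11), Creb1 (43.68) and Crem (43.43) to Atf7 (43.21). The last 3 differ by less than 0.5 and cannot be ranked with 1 library. Their highest scores were matched or passed in the windows of 51.9% to 53.0% of all genes, against 3.21% for Atf3, 6.77% for Atf1 and 12.4% for Atf6. The median of the 10 highest CEBPG scores was 85.9, and it was 55.5 over the 13688 genes with a peak. Within the ATF4 list, the highest scores stood at 145.38 for Atf5 and between 40.67 and 43.98 for Atf1, Atf7 and Jdp2.

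**Figure D4:**
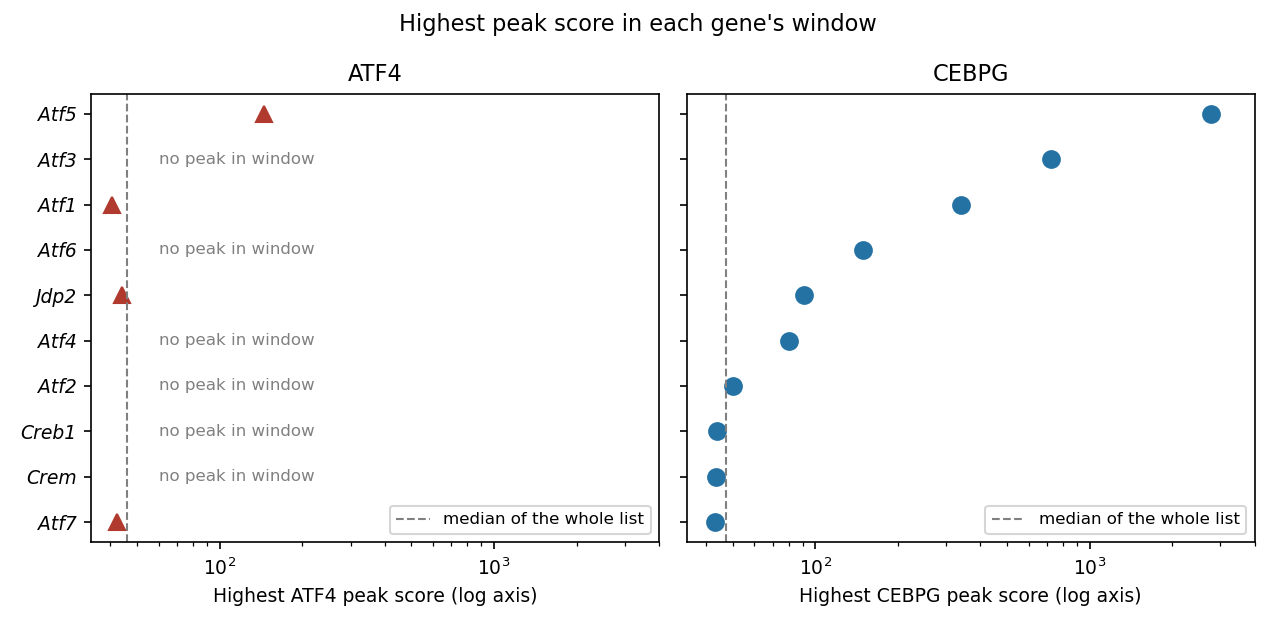
Highest ATF4 peak score (left) and CEBPG peak score (right) in the window of each gene, on log axes, with the median score of the whole list as a dashed line. CEBPG scores spread from 43.21 to 2765.18, while Atf5 is the 1 gene with an ATF4 score above the list median.

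The peaks in the windows were mostly of usual strength for their lists. The median score of the 22 CEBPG peaks was 47.4, against 47.2 for the list, and 11 of them scored under 50 (60.2% of the list). High scores were held by 5 of the 22 (11.7% of the list). Among the 4 ATF4 peaks, 3 scored under 50 (67.9% of the list). An overlap with the other list was seen for 2 of the 4 ATF4 peaks (15.1% of the list) and 2 of the 22 CEBPG peaks (1.58%).

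High-scoring peaks of the family were wider, as in the whole list. The 5 high-scoring CEBPG peaks had a median width of 392.0 bp, against 122.0 bp for the 11 under 50, and in the whole list the high-scoring peaks had 398.0 bp and those under 50 had 127.0 bp. Of the 22 CEBPG peaks, 3 had their centre 1 kb or less from an end of the family gene (Atf3, Atf6 and Jdp2), and 4.33% of the list lay so near an end of any gene. The list share also counts peaks far from any gene, while the 22 were taken for lying near one, so these shares are not like for like. The family gene was the nearest protein-coding gene for 11 of the 22 CEBPG peaks and for 1 of the 4 ATF4 peaks, the one inside Jdp2. The remaining peaks stood nearer to another gene, the Atf5 and Atf1 pairs among them.

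**Figure D5:**
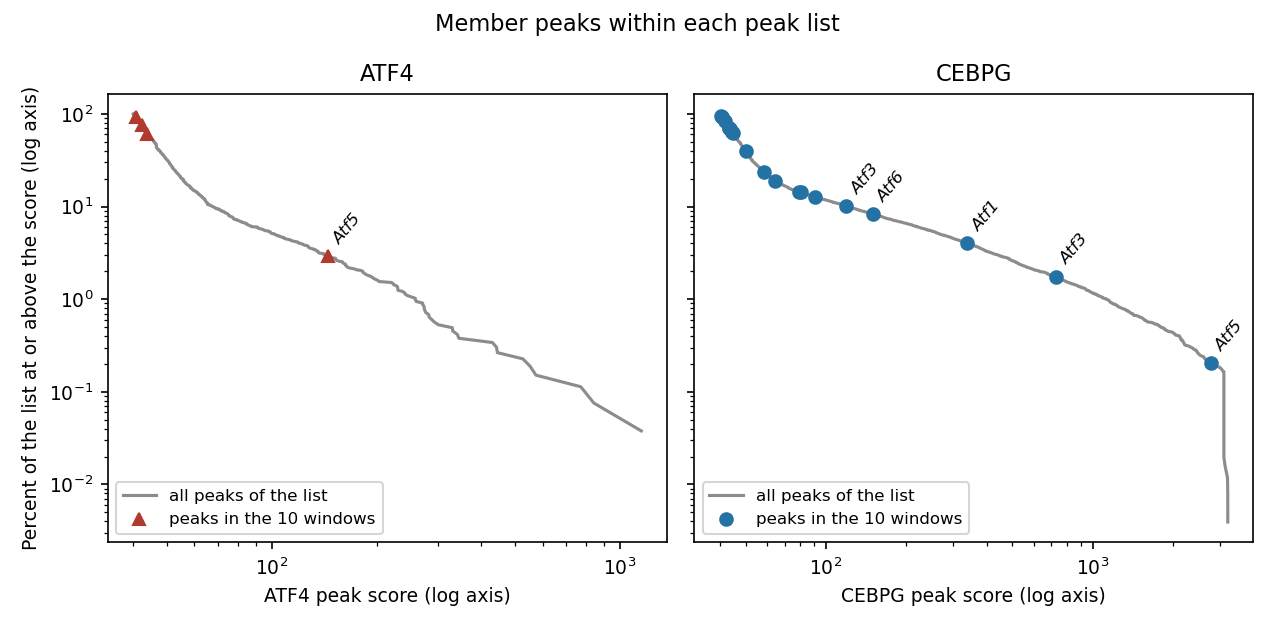
Percent of each list at or above a peak's score, against the score, both on log axes, for all peaks (grey line) and the peaks in the 10 windows (coloured points, high-scoring ones named), with ATF4 on the left and CEBPG on the right. The Atf5 peaks stand at 2.91% of the ATF4 list and 0.205% of the CEBPG list, and 3 of the 4 ATF4 points lie near the lowest scores.

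A limit of 100 kb in place of 50 kb would have added no ATF4 peak. The farthest ATF4 peak inside it was 43.4 kb from Atf7 (score 42.4), and the nearest outside it was 142.0 kb from Jdp2 (49.38). For CEBPG the corresponding peaks were 46.4 kb from Atf3 (119.17) and 53.7 kb from Atf7 (42.89). Distances inside the limit were taken from the peak centre and those outside it from the peak edge.

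Other genes of the pathway were read in the same way. Of 12 further ATF/CREB-type bZIP genes, 2 had an ATF4 peak (12.0% of all genes) and 10 a CEBPG peak (62.5%). Creb3l1, a membrane-bound relative active in collagen-making cells, had an overlapping pair of 160.25 for ATF4 and the tied 3100.0 for CEBPG, 31.5 kb from its span. The ATF4 peak of Batf2 scored 40.45 and had no CEBPG peak beside it. CEBPG alone reached 618.5 at 47.7 kb from Crebl2, 575.43 inside Creb5 and 465.05 at 7.53 kb from Crebzf. The top CEBPG peak of Batf3 is the one in the Atf3 window, and the Batf and Jdp2 windows also overlap.

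Among 13 genes for coactivators and regulators of these proteins, 1 had an ATF4 peak (12.0% of all genes) and 7 had a CEBPG peak (62.5%), shares at or below those of all genes. The gene was Crebbp, the CREB-binding acetyltransferase, with 2 ATF4 peaks in its window. The higher, of 94.62, was inside the gene, away from its CEBPG peak of 45.73. Atf7ip had a CEBPG peak of 1041.57 at 43.4 kb, and Mapk14 (84.47), Ep300 (73.43) and Prkacb (68.53) had weaker ones inside the gene. The last list held 8 genes for kinases, an initiation factor and proteases of the stress pathways around ATF4 and ATF6. Of these, 2 had an ATF4 peak (12.0% of all genes) and 5 a CEBPG peak (62.5%), and the CEBPG share equals that of all genes. Eif2ak4, which encodes the amino acid sensor GCN2, had 61.44 for ATF4 and 108.45 for CEBPG without overlap. These peaks lay 38.5 kb and 47.2 kb from its span. Ern1, the endoplasmic reticulum sensor IRE1, had 40.67 for ATF4 and 626.66 for CEBPG inside the gene without overlap. Eif2s1 (102.39, at 32.5 kb from its span) and Eif2ak1 (51.19, inside the gene) had CEBPG peaks alone.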

How the data were processed

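The submitters' processing notes name HOMER, MACS 1.4.2, BWA, Trimmomatic and the genome build mm10, with settings not given in the sources used here. The deposited files are peak lists, 1 per library, which give each peak's position and, at the end of its name, the authors' score. No header states the scale of the score. The sources used here do not say whether the GFP library served as background. Libraries were single-end with reads of 36 bp.

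Positions are 1-based. Gene spans and promoters came from RefSeq tables of GRCm38.p6, and members were matched by symbol. A peak belonged to every gene whose window it overlapped. Distances to genes run from the peak centre, except that the nearest peaks outside the 50 kb limit were measured from their edge. Shared peaks overlapped by at least 1 bp. Motifs were searched on both strands. Counts stand beside the same over all protein-coding genes, with no test. Named neighbours lay nearest to, or held, a high-scoring peak; a few further neighbours were named after their values were seen. In each further list, genes with an ATF4 peak and up to 4 with the highest CEBPG scores were named. Members and lists were chosen with earlier results of these data known. Python 3.11.15 with pandas 2.3.3 was used, and the counting was checked on planted peaks.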

Additional observations from a re-analysis of the deposited data

How the results depend on the processing

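Of 58 recomputed values, 24 stayed close to those reported and 34 moved. Counts were called close by a fixed limit on their ratio to the reported count. The CEBPG density and median score were called close when inside the 95% interval of the reported value. The windows and the scores decided the counts of family genes, given here with the share of all genes at the same setting. With the gene span alone, 1 gene had an ATF4 peak (1 peak, Jdp2; 3.94% of all genes), 5 a CEBPG peak (7 peaks; 23.4%) and 0 an overlapping pair (0.804%). With 5 kb on either side, 2 genes had an ATF4 peak (2 peaks; 4.94%), 6 a CEBPG peak (9 peaks; 29.9%) and 1 a pair (Atf5; 1.13%). With 20 kb, 2 genes had an ATF4 peak (2 peaks; 7.44%), 8 a CEBPG peak (11 peaks; 43.7%) and 1 a pair (1.78%). With 100 kb, 4 genes had an ATF4 peak (4 peaks; 19.3%), 10 a CEBPG peak (40 peaks; 79.3%) and 2 a pair (4.79%). At scores of 50 or more, 1 gene had an ATF4 peak (1 peak, Atf5; 4.6%), 7 a CEBPG peak (11 peaks, 0.697 per 100 kb, median score 91.4; 38.2%) and 1 a pair (2.27%). At scores of 100 or more, 1 gene had an ATF4 peak (1 peak; 0.991%), 4 a CEBPG peak (5 peaks, 0.317 per 100 kb, median score 339.0; 17.3%) and 1 a pair (0.882%). Where the family gene had to be the nearest, 1 gene had an ATF4 peak (1 peak; 6.43%), 7 a CEBPG peak (11 peaks, 0.697 per 100 kb; 35.0%) and 0 a pair (1.34%). With an overlap of 50% or more of each peak required, 1 pair was left (1.48%), that near Atf1, since the Atf5 ATF4 peak (322 bp) covers less than 50% of the CEBPG peak (679 bp). The Atf1 pair passed exactly at the limit, with an ATF4 peak of 196 bp inside a CEBPG peak of 392 bp. Leaving out peaks over 1 kb wide changed no value. For the family it could change none, since the widest peak in the windows had 679 bp. The unknown depth limits any statement on missing peaks.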
